A study of Homo sapiens with 6 samples.

Results

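The genes described here are the death receptor genes FAS, TNFRSF1A, TNFRSF10A and TNFRSF10B, the adaptor genes FADD and TRADD, the kinase gene RIPK1, the initiator caspase genes CASP8 and CASP10, and their inhibitor gene CFLAR. They were chosen by symbol, and all 10 were found among the 65746 gene symbols counted. They were measured by RNA sequencing in SU-DHL-8, a human cell line from diffuse large B-cell lymphoma whose genotype the labels give as WT. One group of 3 libraries came from cells kept 24 h in 100 nM erianin, and the other group of 3 came from cells kept 24 h in an equal concentration of DMSO, the solvent. Erianin is a bibenzyl compound of Dendrobium orchids. Both groups are 1 cell line at 1 dose and 1 time, and the labels leave unsaid how separate the replicate cultures were. The p-values therefore describe the spread between these libraries alone, which may be technical.

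Death receptors are membrane proteins of the TNF receptor family with a death domain in the cytosol. When a ligand such as FAS ligand or TRAIL binds, the adaptor FADD is recruited and gathers procaspase-8 and procaspase-10 into a death-inducing signalling complex (DISC), where they cleave and activate each other. CFLAR encodes cellular FLIP, a caspase-8 relative without protease activity that enters the same complex and limits activation. TNF receptor 1 first recruits TRADD and RIPK1 to a complex that signals survival through NF-kB, and caspase-8 is engaged only from a later complex in the cytosol. In B cells this pathway is known for the removal of germinal centre cells.

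Levels are given in counts-per-million (CPM) after TMM scaling between libraries. Changes are log2 fold changes of erianin over DMSO, each with its standard error (SE), and a gene is called when its p-value, adjusted over all genes tested, is under 0.05 in edgeR's quasi-likelihood test. Total counts were 30956443 to 35588728 per library, so that 3 counts, the floor used here, equal 0.084 to 0.097 CPM. The members had 60 to 2769 counts per library, far above that floor. DMSO replicate 1 stood apart, with a biological coefficient of variation of 0.292 and 0.295 against the other DMSO libraries, which differed from each other by 0.038. Results that rest on it are given with and without it.

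Of the B cell markers, all 6 were measured (MS4A1, CD79A, CD79B, CD22 and PAX5 among them), with a summed level of 2703 to 3729 CPM with DMSO and 2286 to 2559 CPM with erianin. The 4 germinal centre markers summed to 614 to 799 CPM with DMSO and 341 to 391 CPM with erianin, a sum that is mostly CD38. CD38 fell from 654 to 348 CPM (adjusted p = 0.0048), while BCL6 (9.53 and 10.2 CPM, adjusted p = 0.81) and MYBL1 (13.6 and 10.7 CPM, adjusted p = 0.40) were not called by edgeR and SERPINA9 was near 0. T cell markers summed to at most 0.172 CPM in any library, epithelial markers to at most 0.154 CPM and fibroblast markers to at most 0.219 CPM. Myeloid markers, mostly LYZ, summed to 4.3 to 7.27 CPM with DMSO and 9.36 to 10.6 CPM with erianin, and the part of CD38 and the myeloid genes in the results was not tested. In bulk RNA, fewer cells of a type and less RNA per cell cannot be told apart.

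With erianin, the messages of caspase-8 and of its inhibitor rose and that of TNF receptor 1 fell. CASP8 rose 1.70-fold (95% confidence interval 1.37 to 2.12), CFLAR rose 1.54-fold (1.29 to 1.84) and TNFRSF1A was 2.80-fold lower (log2 fold change -1.49 ± 0.22 SE). Of the 10 members, all tested, 2 were called higher, 1 lower and 7 were not called. Over all 11550 genes tested, 24.2% were called, 11.8% higher and 12.3% lower. A share of 3 in 10 members is thus near that of all genes. The members' median log2 fold change was 0.16, and that of all genes was -0.0033. Without DMSO replicate 1 the number called was 3 higher and 2 lower, adding TNFRSF10B and FADD, while 55.3% of all genes were then called. With total counts as the only scaling the median of all genes moved to 0.11 and 66.7% of calls over all genes were higher, against 49.0% with TMM. That share was 61.7% with upper-quartile scaling and 84.3% on the log2(TPM + 1) scale, where the median was 0.20. CASP8, CFLAR and TNFRSF1A kept their directions in all 3.

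**Figure D1:**
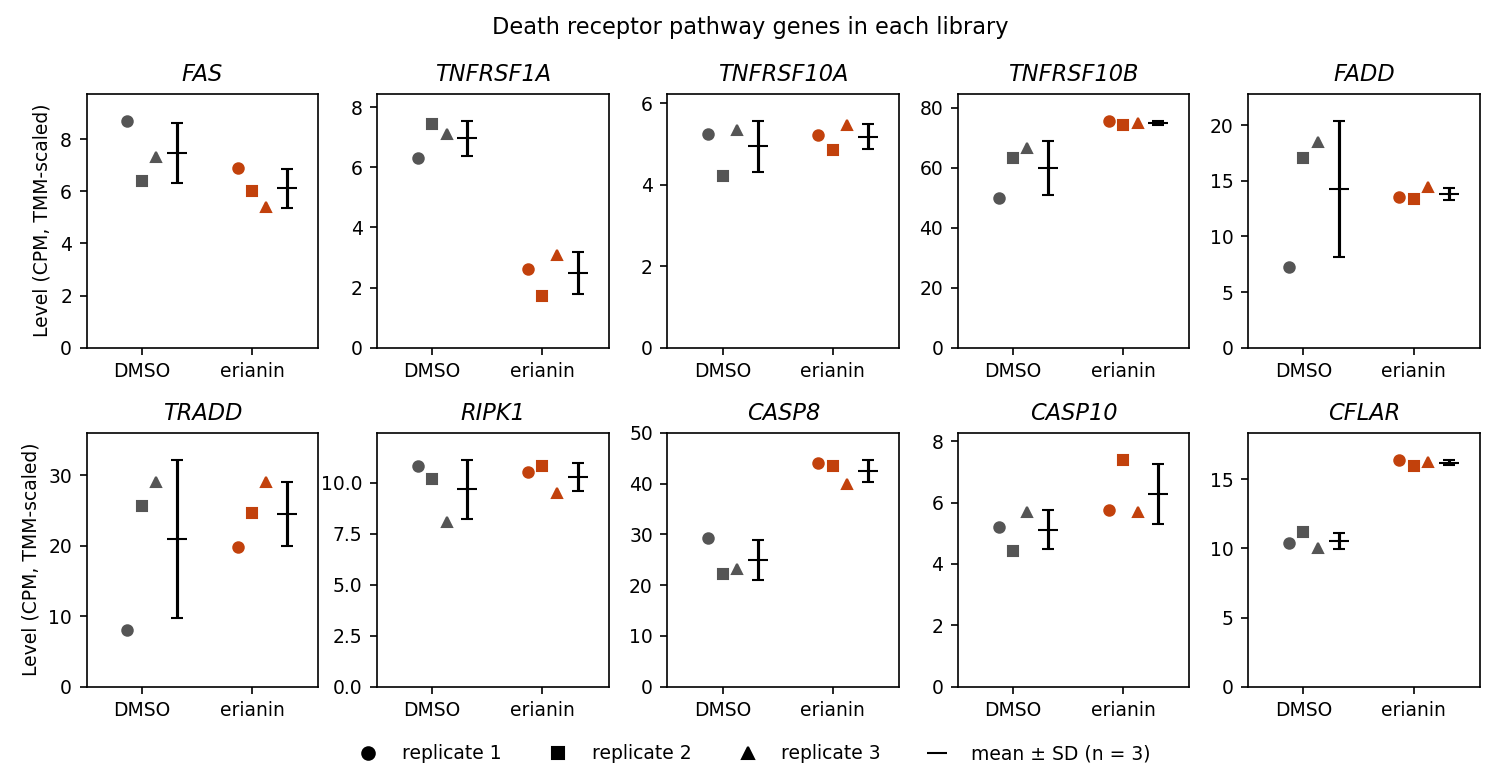
Level of each gene in each library (vertical axis, TMM-scaled CPM, starting at 0) for DMSO and erianin, with symbols for the replicate number and the mean ± SD beside them (n = 3). The groups do not overlap for CASP8, CFLAR, TNFRSF10B and TNFRSF1A, and DMSO replicate 1 is the low point for FADD (7.29 CPM) and TRADD (8.08 CPM).

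TNFRSF1A encodes TNF receptor 1, the main receptor through which TNF signals in most cells (ENSG00000067182, chromosome 12, 6328757 to 6342114, minus strand, GRCh38). Its level was 6.31, 7.46 and 7.12 CPM in DMSO replicates 1, 2 and 3. With erianin it was 2.62, 1.73 and 3.09 CPM in replicates 1, 2 and 3. Every erianin library lay below every DMSO library. By edgeR's quasi-likelihood test the log2 fold change had an adjusted p of 0.0054, and without DMSO replicate 1 it was -1.54 ± 0.19 (adjusted p = 1.5e-07). It was the largest change among the members, at the 0.502 percentile of the log2 fold changes of all genes. The call was kept without any single library (adjusted p up to 0.038). It ended on the log2(TPM + 0.1) scale, where the adjusted p was 0.051.

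TNFRSF10B encodes DR5, a receptor for TRAIL whose gene is a known target of stress transcription factors (ENSG00000120889, chromosome 8, 23020133 to 23069179, minus strand). It was the member with the highest CPM. DMSO replicates 1, 2 and 3 had 49.7, 63.4 and 66.5 CPM, and erianin replicates 1, 2 and 3 had 75.6, 74.2 and 75.03 CPM. The groups did not overlap, and the erianin libraries lay close together while DMSO replicate 1 was the lowest. The log2 fold change of 0.32 ± 0.13 was not called (adjusted p = 0.11 by edgeR). Without DMSO replicate 1 it was called, with a smaller change of 0.22 ± 0.07 (adjusted p = 0.0090), and with total counts alone as the scaling its adjusted p was 0.041. Of its exonic bases, 67 are shared with RHOBTB2 on the opposite strand.

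TNFRSF10A encodes DR4, the other TRAIL receptor with a death domain (ENSG00000104689, chromosome 8, 23190452 to 23225126, minus strand). Its DMSO levels of 5.26, 4.22 and 5.35 CPM in replicates 1, 2 and 3 bracketed 2 of the 3 erianin levels, which were 5.22, 4.85 and 5.46 CPM. The log2 fold change was 0.07 (95% confidence interval -0.30 to 0.43, adjusted p = 0.79 by edgeR), and -0.04 without DMSO replicate 2. Of its exonic bases, 490 are shared with RNA genes on the opposite strand, of which TNFRSF10A-AS1 was listed at 0 in all 6 libraries. FAS encodes the receptor of FAS ligand (ENSG00000026103, chromosome 10, 88990582 to 89015785, plus strand). The DMSO libraries had 8.71, 6.41 and 7.32 CPM and the erianin libraries 6.91, 6.01 and 5.40 CPM. The groups overlapped, and DMSO replicate 1 was the highest library. Its change of -0.29 (-0.69 to 0.11) was not called (adjusted p = 0.25), but was called lower when GC content and transcript length were fitted as offsets (-0.36, adjusted p = 0.043). FAS shares 380 exonic bases with ACTA2 on the opposite strand, which had 21 to 58 counts.

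In each library the TNFRSF10B count was 9.44 to 15.2 times the TNFRSF10A count. That ratio needs no scaling between libraries, but it is not divided by gene length. It was 9.44, 14.96 and 12.4 in DMSO replicates 1, 2 and 3 and 14.5, 15.2 and 13.7 with erianin, so that the groups overlapped. The mean log2 ratio differed by 0.26 (two-sided exact permutation p = 0.3, adjusted p = 0.4 over 4 ratios). Without DMSO replicate 1 it differed by 0.087. The smallest p that 3 against 3 libraries allow is 0.1.

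FADD encodes the adaptor that joins death receptors to caspase-8 (ENSG00000168040, chromosome 11, 70203163 to 70207390, plus strand). DMSO replicate 1 had 7.29 CPM, against 17.1 and 18.5 CPM in DMSO replicates 2 and 3. The erianin libraries had 13.6, 13.4 and 14.4 CPM, above the first of these and below the others. With all 6 libraries the log2 fold change was -0.05 (-0.79 to 0.68, adjusted p = 0.92 by edgeR), and the direction turned with total counts (0.06), upper-quartile scaling (0.02), limma-voom (0.05) and both TPM scales (0.31 and 0.33). Without DMSO replicate 1, FADD was called lower, with a log2 fold change of -0.36 ± 0.10 (adjusted p = 0.0035). An antisense transcript in the annotation covers 1011 of the 1841 exonic bases of FADD, and strand handling is not given in the sources used here.

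TRADD encodes the death domain adaptor of TNF receptor 1 (ENSG00000102871, chromosome 16, 67154180 to 67160298, minus strand). It showed the same split, since DMSO replicate 1 had 8.08 CPM while DMSO replicates 2 and 3 had 25.7 and 29.03 CPM. With erianin it had 19.8, 24.6 and 28.96 CPM, overlapping DMSO replicates 2 and 3. Its log2 fold change was 0.22 (-0.76 to 1.21, adjusted p = 0.74) and -0.15 without DMSO replicate 1 (adjusted p = 0.26), so that the direction rested on that library. RIPK1 encodes the kinase that both relays survival signals and, when left unmodified, drives cell death (ENSG00000137275, chromosome 6, 3063991 to 3115187, plus strand). Levels were 10.8, 10.2 and 8.06 CPM in DMSO and 10.5, 10.8 and 9.52 CPM in erianin, and the groups overlapped. Its log2 fold change was 0.09 (-0.26 to 0.44, adjusted p = 0.71), and -0.03 without DMSO replicate 3. Overlap with genes on the opposite strand covers 126 exonic bases of TRADD and 238 of RIPK1.

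**Figure D2:**
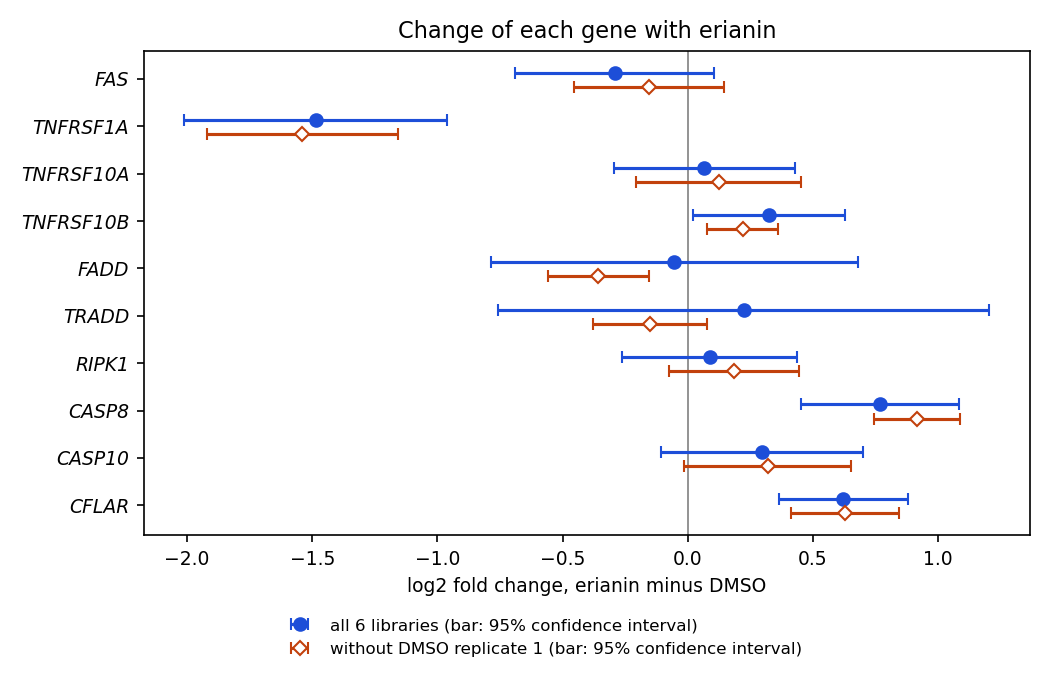
Log2 fold change of each gene, erianin minus DMSO (horizontal axis), with all 6 libraries (filled) and without DMSO replicate 1 (open), bars giving 95% confidence intervals of the edgeR fit. CASP8, CFLAR and TNFRSF1A lie on the same side of 0 in both, FADD and TRADD have the widest intervals with all libraries, and TRADD changes side.

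The 2 adaptor genes were the members that differed most in DMSO replicate 1. Relative to the mean of DMSO replicates 2 and 3, its level was -1.75 (log2) for TRADD and -1.28 for FADD, and between -0.38 and 0.37 for the other 8 members. Of the genes tested, 1.16% lay lower than TRADD in this measure and 3.76% lower than FADD. The longest transcripts of TRADD and FADD have the highest GC content of the members (65.0% and 58.6%) and the shortest lengths (1877 and 1841 bases). Across 11404 genes the same deviation had a Spearman correlation of -0.52 with GC content and 0.33 with transcript length, which is a description across genes of 1 set of libraries, and genes are not independent replicates. With offsets for GC content and length in each library, the log2 fold changes were -0.10 for FADD and 0.12 for TRADD (adjusted p = 0.75 for each).

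**Figure D3:**
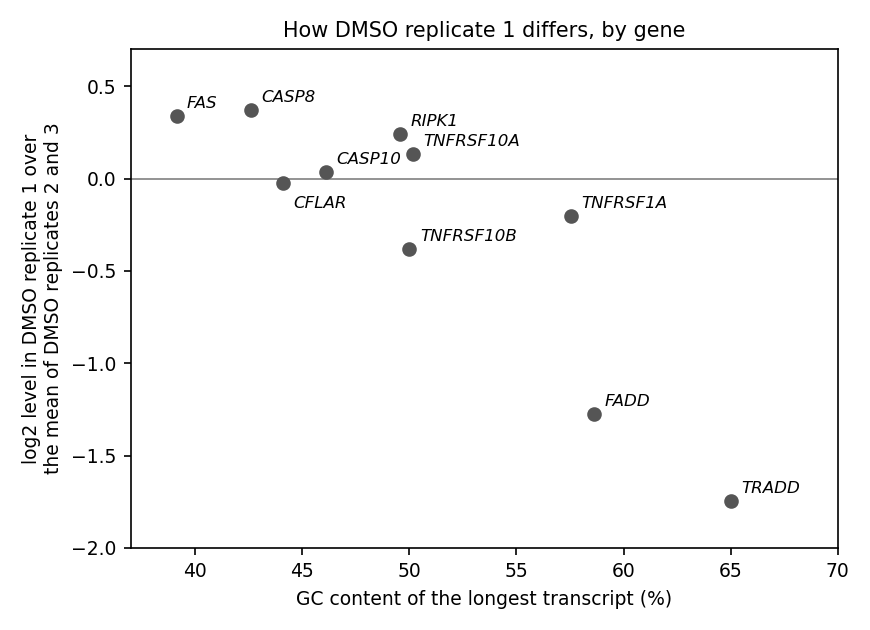
Log2 level in DMSO replicate 1 over the mean of the other DMSO libraries (vertical axis) against the GC content of the longest annotated transcript (horizontal axis, percent), with 1 point per member. TRADD and FADD, at 65.0% and 58.6% GC, lie lowest at -1.75 and -1.28, while TNFRSF1A at 57.5% GC lies at -0.21.

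CASP8 encodes caspase-8, the initiator protease of the complex (ENSG00000064012, chromosome 2, 201233443 to 201287711, plus strand). Its level was 29.4, 22.3 and 23.2 CPM in DMSO replicates 1, 2 and 3. It was 44.1, 43.4 and 39.9 CPM in erianin replicates 1, 2 and 3. All erianin libraries were above all DMSO libraries, and DMSO replicate 1 was the highest of its group. The log2 fold change was 0.77 ± 0.14 (adjusted p = 0.0087 by edgeR) and 0.92 ± 0.08 without DMSO replicate 1 (adjusted p = 1.4e-09). The call ended by a small margin without erianin replicate 1 or without erianin replicate 2 (adjusted p = 0.054 each), with log2 fold changes of 0.75 and 0.76. Among all genes tested the change of CASP8 was at the 91.1 percentile.

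CFLAR encodes cellular FLIP, whose long and short protein forms are not separated by counts per gene (ENSG00000003402, chromosome 2, 201116104 to 201176687, plus strand). Its DMSO levels were 10.4, 11.2 and 10.001 CPM in replicates 1, 2 and 3. The erianin levels were 16.4, 15.98 and 16.2 CPM. These were the tightest groups among the members that were called, and they did not overlap. DMSO replicate 1 lay between the other DMSO libraries. The log2 fold change of 0.62 ± 0.11 (adjusted p = 0.0089 by edgeR) was 0.63 ± 0.11 without DMSO replicate 1 (adjusted p = 1.7e-05). As for CASP8, the call ended without erianin replicate 1 (adjusted p = 0.058) or without erianin replicate 2 (adjusted p = 0.053), where the change was 0.63 and 0.64. Of its 22529 exonic bases, 2710 are shared with other annotated genes, of which CFLAR-AS1 and the pseudogene IMPDH1P10 were listed at 0 in all 6 libraries.

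CASP10 encodes caspase-10, the closest relative of caspase-8 (ENSG00000003400, chromosome 2, 201182881 to 201229406, plus strand). DMSO libraries had 5.19, 4.44 and 5.71 CPM, and erianin libraries 5.76, 7.40 and 5.69 CPM. The lowest erianin library lay just under the highest DMSO library. The log2 fold change was 0.30 (95% confidence interval -0.11 to 0.70) and was not called (adjusted p = 0.25). Over all genes tested, 46.8% had groups that did not overlap in either direction. This held for 4 of the 10 members, with CASP8, CFLAR and TNFRSF10B higher and TNFRSF1A lower.

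The count of inhibitor message was compared with that of protease message within libraries. Counts are not divided by gene length, so these ratios compare libraries and are not proportions of molecules. The CFLAR count was 0.355, 0.501 and 0.432 of the CASP8 count in DMSO replicates 1, 2 and 3, and 0.372, 0.368 and 0.407 of it in erianin replicates 1, 2 and 3. The ratios with erianin lay within the DMSO range, all of them above that of DMSO replicate 1 and below those of DMSO replicates 2 and 3. The mean log2 ratio differed by -0.15, with DMSO at -1.23 ± 0.25 and erianin at -1.39 ± 0.08 (SD, n = 3; two-sided exact permutation p = 0.4, adjusted p = 0.4). Without DMSO replicate 1 the log2 difference for CFLAR over CASP8 was -0.28. The CASP10 count was 0.177, 0.1997 and 0.247 of that of CASP8 with DMSO and 0.131, 0.171 and 0.143 with erianin. Here the groups did not overlap, and the mean log2 ratio differed by -0.48 (exact permutation p = 0.1, the smallest possible, and adjusted p = 0.4). The FADD count was 0.249, 0.766 and 0.801 of that of CASP8 with DMSO and 0.308, 0.308 and 0.361 with erianin. All erianin ratios were above that of DMSO replicate 1 and below those of DMSO replicates 2 and 3, and the mean log2 difference was -0.72 (exact permutation p = 0.4) or -1.27 without DMSO replicate 1.

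The promoter windows of the 3 called members are shown because these are the genes whose messages changed. They run from 250 bases before to 50 bases after a RefSeq start site (GRCh38.p14), and 6 of the 10 members were matched in that table. CASP8 has 3 windows in it, CFLAR 4 and TNFRSF1A 1, and the first listed is shown, at chr2:201233213-201233512 (plus strand), chr2:201118466-201118765 (plus strand) and chr12:6342027-6342326 (minus strand). Capitals mark matches, on either strand, to a GAS element, the site of STAT factors (TTCNNNGAA), a CCAAT box (the 5 letters of its name) or a GC box, where factors such as Sp1 bind (GGGCGG). An AP-1 site, bound by Jun and Fos (TGANTCA), and a TATA box near the start site (TATAAA) were searched likewise.
CASP8: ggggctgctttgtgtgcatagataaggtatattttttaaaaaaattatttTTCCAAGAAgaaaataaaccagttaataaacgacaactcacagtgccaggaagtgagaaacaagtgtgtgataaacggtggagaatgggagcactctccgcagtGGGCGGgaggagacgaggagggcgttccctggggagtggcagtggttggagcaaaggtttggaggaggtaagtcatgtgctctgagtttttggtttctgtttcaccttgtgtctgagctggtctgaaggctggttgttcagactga
CFLAR: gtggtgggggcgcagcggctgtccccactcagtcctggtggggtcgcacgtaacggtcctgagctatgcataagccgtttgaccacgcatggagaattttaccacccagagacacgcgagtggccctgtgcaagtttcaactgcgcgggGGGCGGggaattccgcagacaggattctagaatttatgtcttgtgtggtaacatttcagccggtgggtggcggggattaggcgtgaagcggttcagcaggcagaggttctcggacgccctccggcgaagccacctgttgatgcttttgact
TNFRSF1A: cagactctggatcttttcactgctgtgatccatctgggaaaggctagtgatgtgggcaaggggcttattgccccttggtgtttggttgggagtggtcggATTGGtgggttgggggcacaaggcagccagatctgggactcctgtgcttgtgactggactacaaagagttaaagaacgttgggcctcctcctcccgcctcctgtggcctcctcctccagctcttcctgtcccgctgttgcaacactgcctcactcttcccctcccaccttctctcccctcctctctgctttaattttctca

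The windows of CASP8 and CFLAR each hold 1 GC box, starting 96 and 101 bases before the start site, as do 45.0% of all 35116 windows of this length. The CASP8 window also holds 1 GAS element, 200 bases before the start site, a motif present in 7.66% of windows. The TNFRSF1A window holds 1 CCAAT box on the opposite strand, 151 bases before the start site, against 34.6% of windows. No window of these 3 has a match to the AP-1 site (7.71% of windows) or to the TATA box (11.5%). GC content was 46.3% for CASP8, 58.7% for CFLAR and 55.7% for TNFRSF1A. A match is only a run of letters, and binding was not measured.

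CFLAR, CASP10 and CASP8 lie head to tail on the plus strand of chromosome 2 within 171608 bases, with gaps of 6193 and 4036 bases between them. In this row the log2 fold changes were 0.62, 0.30 and 0.77. Of the 13 other tested genes within 500 kb on either side, 4 were called higher (AOX1, BZW1 and NDUFB3 among them) and 0 lower by edgeR. At an unadjusted p under 0.05, a threshold not counted over all genes, 1 was lower, as by DESeq2, which also called 4 higher. Over all genes, edgeR called 24.2% in either direction and 11.8% higher, and DESeq2 called 1596 higher and 1835 lower of 18157. Whether the share of 4 in 13 differs from these was not tested. This window was chosen after the members' values were seen. NDUFB3, which encodes a subunit of respiratory complex I and is the nearest tested gene on the CFLAR side, rose from 34.2 to 49.1 CPM (0.52 ± 0.15, adjusted p = 0.042). TRAK2, the nearest tested gene on the CASP8 side, averaged 19.2 CPM in DMSO and 27.2 CPM in erianin (0.50 ± 0.24, adjusted p = 0.17). Of the genes not called, CLK1 had the lowest change (-0.48 ± 0.15, adjusted p = 0.061).

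**Figure D4:**
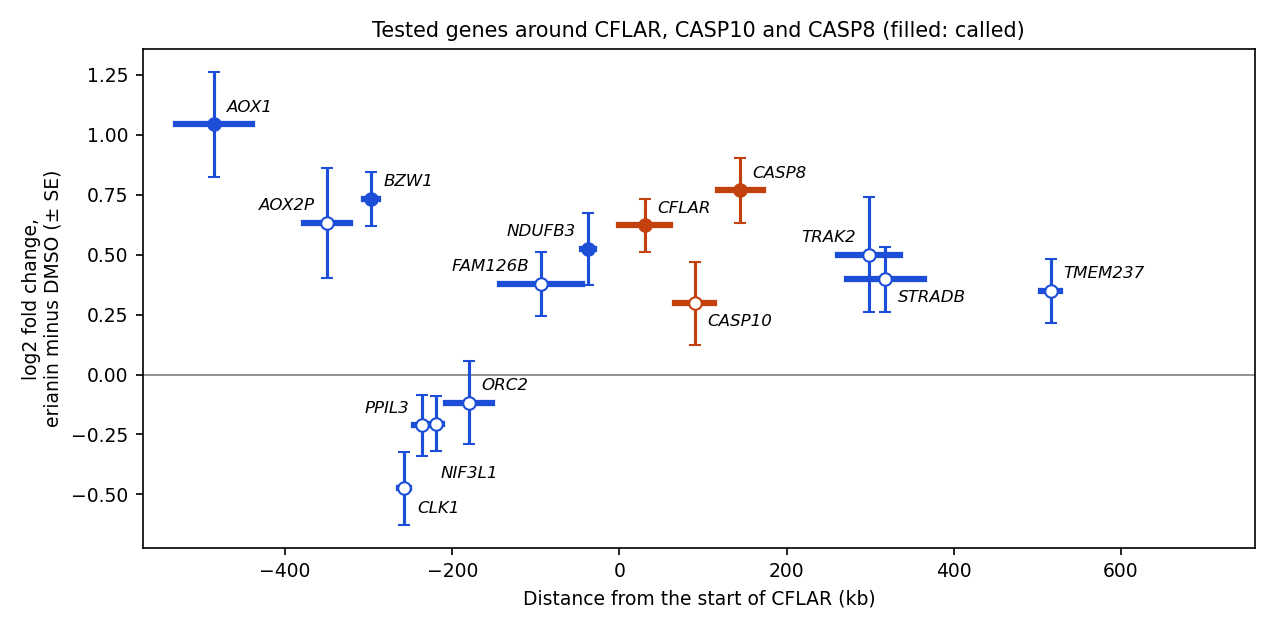
Log2 fold change ± SE (vertical axis) of tested genes by distance from the start of CFLAR (horizontal axis, kb), with horizontal bars for each gene's extent and filled points for called genes. CFLAR at 0.62 and CASP8 at 0.77 (orange) flank CASP10 at 0.30, and AOX1, BZW1 and NDUFB3 are the called genes among the others shown (blue), all of them higher.

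Levels can be compared between genes only per length. On the authors' TPM scale, which divides by gene length, the order with erianin was FADD (39.3 ± 1.32), TNFRSF10B (30.1 ± 0.157), TRADD (22.7 ± 4.25), CASP8 (8.20 ± 0.474), TNFRSF10A (5.75 ± 0.276), RIPK1 (5.68 ± 0.425), CFLAR (1.98 ± 0.0075), FAS (1.32 ± 0.161), CASP10 (1.21 ± 0.203) and TNFRSF1A (0.773 ± 0.207; SD, n = 3). TNFRSF10A and RIPK1 did not differ beyond their spread, nor did FAS and CASP10. With DMSO the order of TPM means was FADD, TNFRSF10B, TRADD, TNFRSF10A, RIPK1, CASP8, TNFRSF1A, FAS, CFLAR and CASP10. Of these, TNFRSF10A (4.59 ± 1.03), RIPK1 (4.45 ± 0.856) and CASP8 (3.97 ± 0.394) did not differ beyond their spread with DMSO. By means alone, from DMSO to erianin, CASP8 passed from place 6 to 4 and TNFRSF1A from 7 to 10. The length behind TPM was short for FADD and long for CASP8, at 0.303 and 2.81 times that of the longest annotated transcript, relative to the median gene. Per kb of the longest transcript the order with erianin was headed by TNFRSF10B (18.1 CPM per kb), CASP8 (14.5), TRADD (13.03) and FADD (7.49). By these means CASP8 passed from place 3 to 2 and TNFRSF1A from 5 to 8, but CASP8 and TRADD did not differ beyond their spread in either group. The places of FADD, CASP8 and TNFRSF1A thus depend on the length used. CFLAR was low on both scales (1.10 CPM per kb with erianin, over a longest transcript of 14672 bases).

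Genes whose level followed CASP8 most closely over the 6 libraries, among 7880 genes of at least 10 CPM on average, were TRIM38 (Pearson r = 0.9994), MAT2A (0.998) and LONRF1 (0.998). For CFLAR they were NRBP1 (0.998), POP1 (0.998) and OTUD3 (0.998). CASP8 and CFLAR had r = 0.92 with each other. These values describe 6 libraries that share the step between the groups. MAT2A, which makes S-adenosylmethionine, averaged 272 CPM in DMSO and 425 CPM in erianin.

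The other genes of the pathway were taken from a list of 58, chosen by role with earlier results of these data known. Of these, 47 could be tested, and 5 were called higher, 6 lower and 36 were not called. That is near the 24.2% of all genes, and the median log2 fold change of the tested genes was -0.02. Without DMSO replicate 1 the counts were 17 higher and 14 lower, where 55.3% of all genes were called.

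Among the ligand genes, TNF rose while TNFRSF1A, the gene of its receptor, fell. TNF, a cytokine that B cells can make themselves, had 1.22, 2.16 and 2.06 CPM in DMSO replicates 1, 2 and 3. In the erianin libraries it had 6.12, 5.87 and 6.29 CPM, all above the DMSO libraries. It rose by 1.74 ± 0.23 on the log2 scale (adjusted p = 0.0035 by edgeR), and 1.54 without DMSO replicate 1 (adjusted p = 5.3e-08). TNFSF10, which encodes TRAIL, averaged 5.52 ± 1.07 CPM in DMSO and 4.38 ± 0.413 CPM in erianin (adjusted p = 0.23). LTA, which encodes lymphotoxin alpha, another ligand of TNF receptor 1, had 2.78 ± 0.58 and 2.55 ± 0.237 CPM (adjusted p = 0.698). FASLG, TNFSF12 and TNFSF15 had too few counts to be tested.

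None of the 3 other death and decoy receptor genes that could be tested was called, 0 by edgeR and 0 by DESeq2. Over all genes, edgeR called 24.2%, and DESeq2 called 1596 higher and 1835 lower of 18157. At an unadjusted p under 0.05, a threshold not counted over all genes, 1 of the 3 was higher and 1 lower. These were TNFRSF25, which encodes DR3, at 0.38 ± 0.0734 CPM in DMSO and 0.72 ± 0.234 CPM in erianin (adjusted p = 0.10), and TNFRSF21, which encodes DR6, at 4.81 ± 0.67 and 3.61 ± 0.424 CPM (adjusted p = 0.12). TNFRSF1B encodes TNF receptor 2, which has no death domain. Its mean was 99.9 ± 8.05 CPM in DMSO and 100.1 ± 6.10 CPM in erianin (95% confidence interval of the log2 fold change -0.25 to 0.26, adjusted p = 0.99). TNFRSF10C, TNFRSF10D, TNFRSF11B and TNFRSF6B, the decoy receptor genes of the list, were listed at 0 in all 6 libraries. NGFR and EDAR had too few counts to be tested.

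Of the 20 genes of the TNF receptor complex and its ubiquitin enzymes, 2 were called higher, 4 lower and 14 were not called, beside 11.8% higher and 12.3% lower over all genes. Without DMSO replicate 1, edgeR called 9 higher and 10 lower, where 55.3% of all genes were called. Those that gained a call there include TRAF2 (-0.81, adjusted p = 1.6e-10) and MAP3K7 (0.71, adjusted p = 1.1e-08). TRAF1, an adaptor and known NF-kB target, had 0.427, 0.801 and 0.971 CPM in DMSO and 2.18, 1.68 and 2.37 CPM in erianin. It rose by 1.49 ± 0.31 on the log2 scale (adjusted p = 0.016), and the call ended without erianin replicate 1 (adjusted p = 0.069) or without erianin replicate 3 (adjusted p = 0.070). CHUK, which encodes the IKK alpha kinase, rose from 34.4 ± 1.59 to 48.4 ± 2.30 CPM. Those that fell were TAB1, TNIP1, RNF31 and CYLD. TAB1, a partner of the kinase TAK1, fell from 128 ± 2.22 to 83.5 ± 6.12 CPM. TNIP1, a partner of the deubiquitinase A20, fell from 92.3 ± 7.71 to 60.03 ± 6.24 CPM. RNF31 encodes the catalytic subunit of the linear ubiquitin ligase and fell from 64.1 ± 1.73 to 44.3 ± 4.64 CPM (-0.53 ± 0.11). CYLD, a deubiquitinase gene, fell from 53.3 ± 1.91 to 38.5 ± 3.47 CPM (-0.47 ± 0.11). These genes were called in the same direction without DMSO replicate 1, but each of TAB1, TNIP1, CHUK, RNF31 and CYLD lost its call without erianin replicate 1 (adjusted p = 0.059 to 0.089) and without erianin replicate 2 (adjusted p = 0.059 to 0.089). RNF31 also lost it without DMSO replicate 2 (adjusted p = 0.053), and CYLD without DMSO replicate 2 or 3 or erianin replicate 3 (adjusted p = 0.063 to 0.069). CHUK was also not called with the GC content and length offsets (adjusted p = 0.052), nor were CYLD (0.057) and FAF1 (0.053) with total counts. CYLD and DEDD2 lost their calls when the offsets were joined with a replicate block (0.076 and 0.060), as did CHUK (0.061). On the log2(TPM + 1) scale TAB1, TNIP1, RNF31, FAF1 and CYLD were not called (adjusted p = 0.215 to 0.56), nor were CHUK (0.065) and DEDD2 (0.12). TNFAIP3, which encodes A20, averaged 167 ± 32.9 CPM in DMSO and 121 ± 0.851 CPM in erianin and was not called (adjusted p = 0.055). Without DMSO replicate 1, its highest library at 205 CPM, it was called lower (-0.28, adjusted p = 0.00034).

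**Figure D5:**
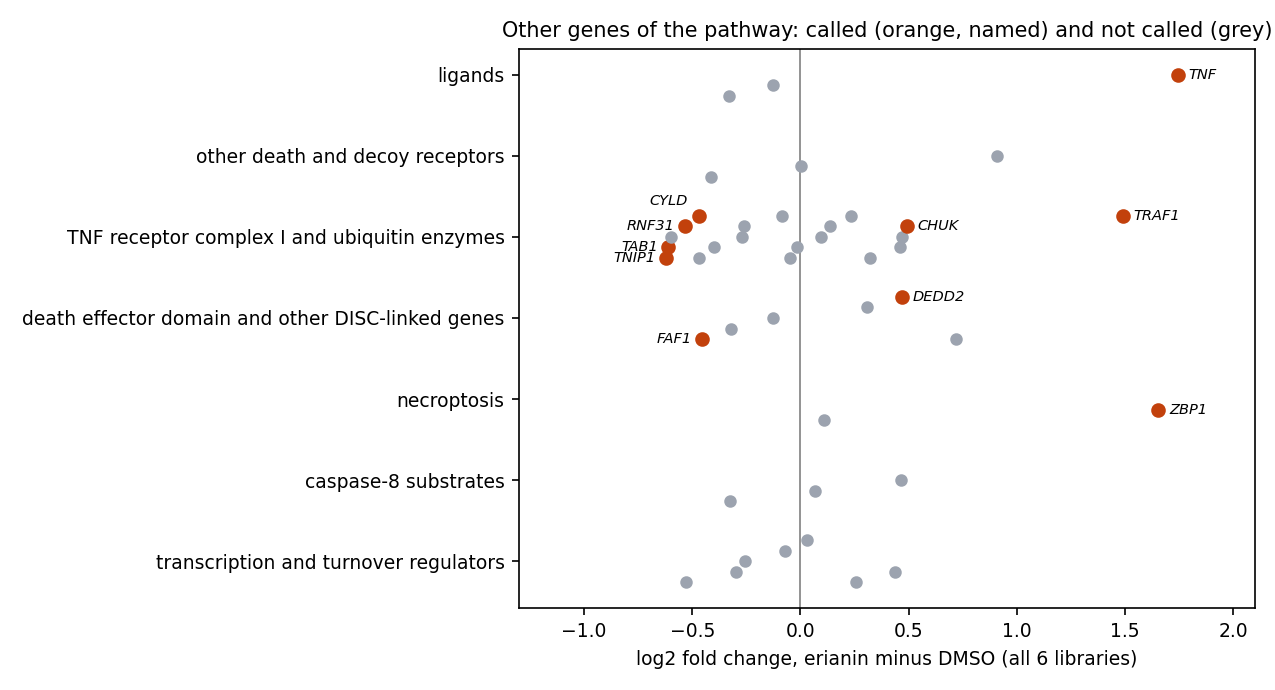
Log2 fold change, erianin minus DMSO (horizontal axis), of tested genes of the wider list by role, with called genes in orange and named and the others in grey. TNF, ZBP1 and TRAF1 lie farthest to the right (1.74, 1.65 and 1.49), and the caspase-8 substrates shown are uncalled.

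Among genes of death effector domain proteins and others tied to the complex, edgeR called 1 of 6 tested higher and 1 lower. Over all genes it called 11.8% higher and 12.3% lower. DEDD2 rose from 43.5 ± 5.76 to 60.2 ± 4.85 CPM (0.47 ± 0.13, adjusted p = 0.039), a call lost on leaving out DMSO replicate 2 or 3 or any erianin library (adjusted p up to 0.13). FAF1, which encodes a FAS-associated factor, fell from 116 ± 8.33 to 84.6 ± 0.92 CPM (-0.45 ± 0.10, adjusted p = 0.018), a call lost without DMSO replicate 2 or any 1 erianin library (adjusted p up to 0.10). GALNT14 had too few counts to be tested.

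Necroptosis is the caspase-independent death that caspase-8 restrains by cleaving RIPK1 and RIPK3. ZBP1, a nucleic acid sensor that can engage RIPK3, rose from 0.383 ± 0.0759 to 1.21 ± 0.249 CPM (1.65 ± 0.29, adjusted p = 0.0089), and leaving out erianin replicate 1 ended the call (adjusted p = 0.052). RIPK3 itself had 2, 1 and 2 counts in the DMSO libraries and 0 in each erianin library, all at or under the floor of 3 counts, and was not tested. MLKL, the executioner of this death, averaged 6.10 CPM in DMSO and 6.58 CPM in erianin (adjusted p = 0.73).

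Of the 5 genes listed for proteins that caspase-8 cleaves, 0 were called by edgeR, beside 24.2% of all genes. DESeq2 called 2 higher, and over all 18157 genes with counts it called 1596 higher and 1835 lower. At an unadjusted p under 0.05, a threshold not counted over all genes, 2 were higher. BID links death receptors to mitochondria and averaged 34.4 ± 4.57 CPM in DMSO and 35.998 ± 3.66 CPM in erianin (adjusted p = 0.77). CASP6, an effector caspase gene, averaged 8.20 ± 0.478 and 11.3 ± 1.80 CPM (0.46 ± 0.15, adjusted p = 0.064), with no overlap between groups. Without DMSO replicate 1 it was called higher (0.50, adjusted p = 0.0023). GSDMD, which encodes the pore protein gasdermin D, averaged 55.1 ± 22.02 and 43.96 ± 2.53 CPM (adjusted p = 0.46), and was called lower without DMSO replicate 1 (-0.61, adjusted p = 1.4e-07). That library had 29.7 CPM, while DMSO replicates 2 and 3 had 68.1 and 67.5 CPM.

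Among regulators of the transcription and turnover of these genes, 7 were not called. DDIT3, which encodes CHOP, a stress factor that activates TNFRSF10B, averaged 44.3 CPM in DMSO and 52.9 CPM in erianin (adjusted p = 0.27). NFKB1, which encodes an NF-kB subunit, averaged 77.9 ± 6.31 and 65.3 ± 1.36 CPM with no overlap between groups (-0.25 ± 0.10, adjusted p = 0.11). It was called lower by edgeR without DMSO replicate 1 (-0.17, adjusted p = 0.036). In the same fit CUL3 (0.30, adjusted p = 0.00066) and RBX1 (0.28, adjusted p = 0.0015) were called higher. With all libraries the groups also did not overlap for RBX1, which was higher, and RELA, which was lower, beside 46.8% of all genes without overlap.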

How the data were processed

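RNA from SU-DHL-8 cells was sequenced in 6 libraries, 3 with erianin and 3 with DMSO. The authors deposited 2 tables over the same libraries, one of raw counts per gene symbol and one of TPM values. Tools listed in the submitters' processing notes, without their roles, are StringTie 2.2.1, featureCounts 2.0.1, STAR 2.7.10 and fastp 0.23.2, and the build is GRCh38 (hg38). Gene annotation and strand setting: not given in the sources used here. The deposited TPM columns reach 39.2% of the sum that defines the unit in DMSO replicate 1 and 63.6% to 66.7% in the others, so TPM serves here for levels and alternatives only. After 61 repeated symbols were left out, 65746 remained, of which 18157 had at least 1 count.

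Counts were fitted with edgeR 4.0.16 in R 4.3.3 (TMM, filterByExpr, quasi-likelihood F test, treatment as the only term, all 6 libraries), with Benjamini-Hochberg adjustment over 11550 genes and a threshold of 0.05. SE is the log2 fold change divided by the root of F. Ratios of counts, with 0.5 counts added, entered two-sided exact permutation tests (scipy 1.17.1). Alternatives were other scalings and filters, DESeq2 1.42.0, limma 3.58.1 (voom on counts, and a trend fit on log2 TPM with 1 or 0.1 added), a replicate block, offsets for GC content and length (mgcv 1.9.3, GENCODE 29 transcripts), and each library left out. The fit was tested on simulated data, where most of the changes put in were not called. Far fewer genes were changed there than were called here, so that sensitivity does not carry over. A gene not called here may still have changed. Named genes were all 10 members, the 12 genes of the wider list with the lowest p, and the 3 genes most alike to each of CASP8 and CFLAR. Other genes of the list, chosen after their values were seen, are named to describe their role groups. A few genes of the lists are left out of the text and the plots and are not reported here. The members and lists were chosen with earlier results of these data known.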

Additional observations from a re-analysis of the deposited data

How the results depend on the processing

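Counts of genes called higher or lower kept within 1.5 times their value under most scalings, filters and tools, and the exceptions follow. Over all genes, the number lower was 1423, and 918 with total counts, 262 and 245 on the log2(TPM + 1) and log2(TPM + 0.1) scales, and 2458 with offsets for GC content and length. Leaving out 1 library gave 407 to 3278 genes higher and 338 to 3227 lower, the most without DMSO replicate 1. Offsets without DMSO replicate 1, an alternative chosen after seeing the data, gave 2957 higher and 4234 lower. Of the 10 members, 0 to 3 were higher with 1 library left out, with 0 without erianin replicate 1 or 2, and 1 to 2 were lower. The number lower was 0 on the log2(TPM + 0.1) scale, 2 with offsets and 3 with offsets without DMSO replicate 1. In the wider list, 9 genes were higher with upper-quartile scaling, 10 with total counts, 10 with DESeq2 (untested genes included) and 15 with offsets without DMSO replicate 1, and 1 to 17 with 1 library left out. The number lower was 0 on both TPM scales, 12 with offsets, 17 with offsets without DMSO replicate 1, and 1 to 14 with 1 library left out. Direction turned for 4 members that were not called. FADD was at 0.025 with upper-quartile scaling, 0.063 with total counts, 0.051 with limma-voom, and 0.31 and 0.33 on the TPM scales. With 1 library left out, FADD ranged from -0.36 to 0.17, TRADD from -0.15 to 0.53, TNFRSF10A from -0.040 to 0.12 and RIPK1 from -0.034 to 0.19. TRADD was at -0.16 with offsets without DMSO replicate 1. The cause of these shifts was not tested. Of 417 values of 22 named genes under the alternatives, 340 kept direction and call, 53 lost the call, 12 gained it and 12 changed sign, and all 40 values of the ratios kept their direction. The labels number the replicates in both groups but do not say that they were paired, and the numbers were not taken as pairs. Deviations of same-numbered libraries correlated at 0.17, -0.14 and 0.23 over genes. Differently numbered libraries gave -0.29 to 0.25, a range that holds those values, so the correlations cannot tell paired from unpaired libraries. With a replicate block, 1139 genes were higher and 1157 lower, the members were 2 higher and 1 lower, and FADD was at 0.044. Counting error is not small for members with low counts, such as TNFRSF1A with 60 counts in erianin replicate 2. Without DMSO replicate 1 the SE was 0.19 for TNFRSF1A and 0.07 for TNFRSF10B, the member with the highest CPM. Having 3 libraries per group also limits the precision.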
